A study of Mus musculus with 28 samples.

Results

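The genes described here encode the subunits of the NMDA receptor in the mouse, and they were read in ventromedial prefrontal cortex, a medial frontal area involved in emotional control. The members were chosen by symbol: Grin1, Grin2a, Grin2b, Grin2c, Grin2d and Grin3a, 6 of the 52636 genes listed in every counts file. All 6 passed the filter on low counts and were among the 19171 genes tested. The 28 libraries came from 28 female mice in 4 groups of 7, and no age, strain or viral promoter was given in the sources used here. Mice labelled LacZ received a control virus, and mice labelled Slit1 KD received a virus named as a knockdown of Slit1, which encodes a secreted axon guidance ligand. Within each virus, 7 mice were taken without stress and 7 after 3 days of a stress procedure that the labels abbreviate as sCVS. All groups therefore carried a virus in the punched tissue, and the punches hold infected and uninfected cells together.

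The NMDA receptor is a glutamate-gated cation channel that opens when glutamate and a co-agonist, glycine or D-serine, are both bound and depolarisation has driven magnesium out of the pore. Grin1 encodes the obligatory GluN1 subunit, which binds the co-agonist. Grin2a to Grin2d encode GluN2 subunits, which bind glutamate and set the kinetics of the channel, and Grin3a encodes GluN3A, a glycine-binding subunit that lowers calcium permeability. In cortex the Grin2a and Grin2b products are the main partners of GluN1, and their balance moves towards Grin2a during postnatal development.

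Levels are CPM, counts scaled to a common library size with TMM factors. The smallest library held 30.6 M counts in genes, the largest 44.3 M and the median one 39.6 M. Slit1, the gene named by the knockdown label, stood at 24.3 ± 16.1 CPM (SD, n = 7) in LacZ unstressed, 19.8 ± 10.2 in LacZ stressed, 25.8 ± 17.5 in knockdown-labelled unstressed and 18.2 ± 9.80 in knockdown-labelled stressed libraries. Averaged over stress states its log2 fold change under the knockdown label was -0.02 ± 0.30 (SE, edgeR quasi-likelihood test, Benjamini-Hochberg adjusted p = 1.00), with a 95% interval from -0.64 to 0.60. The counts thus do not show the knockdown, and the groups are called by their labels. These counts cover the whole gene span with its introns, so spliced Slit1 mRNA was not measured apart and a fall in it alone could be missed. Markers of excitatory neurons were present in all groups, with a summed level between 631 and 1227 CPM over 13 genes and no gene at 0. Bone marker genes reached 2324 CPM in knockdown-labelled stressed replicate 2 against at most 51.8 CPM in the libraries of the other 3 groups, and striatal neuron markers reached 338 CPM in knockdown-labelled stressed replicate 7 against a median of 97.7 CPM in its group. These and LacZ stressed replicate 4 were set apart by earlier results on these data, and stress values without the 3 are given after the main ones. Striatal markers also reached 190 CPM in LacZ unstressed replicate 6, against a group median of 93.8 CPM. In knockdown-labelled unstressed replicate 6 they reached 180 CPM, against a group median of 93.3 CPM. Neither of these libraries was among the 3 set apart.

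The members differed widely in level and in how much of their count could come from introns, because fragments were counted over the whole gene span. Grin2b (ENSMUSG00000030209) had the highest count of the 6, with 687 CPM in the lowest, 1102 in the median and 1631 in the highest of the 28 libraries. It spans 460279 bp of GRCm38 chromosome 6 (135713233 to 136173511, minus strand), and 5.40% of that span is exonic in GENCODE M21. Grin2a (ENSMUSG00000059003) followed with 489, 700.2 and 1146 CPM, from a span of 427663 bp on chromosome 16 (9567898 to 9995560, minus strand) that is 4.19% exonic. Most of the counted sequence of these genes is therefore intron.

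Grin3a (ENSMUSG00000039579, chromosome 4, 49661611 to 49845744, minus strand) was intermediate, at 50.7, 77.7 and 111 CPM over the 28 libraries, and 6.67% of its span is exonic. Grin1 (ENSMUSG00000026959, chromosome 2, 25291181 to 25319187, minus strand) stood at 10.7, 23.8 and 72.2 CPM. Its span of 28007 bp is 34.6% exonic, and 27.5% of it is shared with the antisense gene Grin1os, so that fragments in the shared stretch were assigned to neither gene and the Grin1 count is a partial one. The obligatory subunit was thus counted far below Grin2a and Grin2b, on a span many times shorter.

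Grin2c (ENSMUSG00000020734, chromosome 11, 115249169 to 115267243, minus strand), a subunit best known from cerebellar granule cells, stood at 0.994, 3.14 and 16.7 CPM. Grin2d (ENSMUSG00000002771, chromosome 7, 45831883 to 45878378, minus strand), best known from interneurons and early development, stood at 1.36, 2.58 and 5.83 CPM, and 19.3% of its span is shared with other genes, among them Kdelr1. The lowest single counts were 21 fragments for Grin2c and 29 for Grin2d, so both were detected in all 28 libraries. Grin3b, the remaining gene of the family and not a member, had 62 counts over all libraries, was at 0 in 11 of them and shares 34.6% of its span with Tmem259.

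Only levels per length can be compared between genes. Per kb of counted span, the mean level ran Grin2b, Grin2a, Grin1, Grin3a, Grin2c, Grin2d, at 2.44 ± 0.510, 1.71 ± 0.394, 1.02 ± 0.510, 0.428 ± 0.0792, 0.248 ± 0.207 and 0.0614 ± 0.0224 CPM per kb (SD, n = 28). Grin2b was above Grin2a and Grin2c above Grin2d in 28 of 28 libraries, whereas Grin2a was above Grin1 in 23, Grin1 above Grin3a in 24 and Grin3a above Grin2c in 22. Of these 5 neighbours only Grin1 and Grin3a had means further apart than the sum of their SDs, and then by a ratio of 1.004. Per kb of merged exons the order was Grin2b, Grin2a, Grin3a, Grin1, Grin2c, Grin2d, so Grin1 and Grin3a changed places. This scale divides counts that include intronic fragments by exon length alone. Intronic fragments can therefore raise genes of small exonic share, such as Grin3a at 6.67%, against Grin1 at 34.6%. The Grin1 count also lacks the stretch shared with Grin1os. On that scale Grin3a was above Grin1 in 27 of 28 libraries by a mean ratio of 2.18, and the means of Grin2b and Grin2a, 45.1 ± 9.45 and 40.7 ± 9.41 CPM per kb, lay within their spread. Per kb of span that no other listed gene overlaps, Grin1 came to 1.41 ± 0.704 and was below Grin2a in only 17 of 28 libraries.

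**Figure D1:**
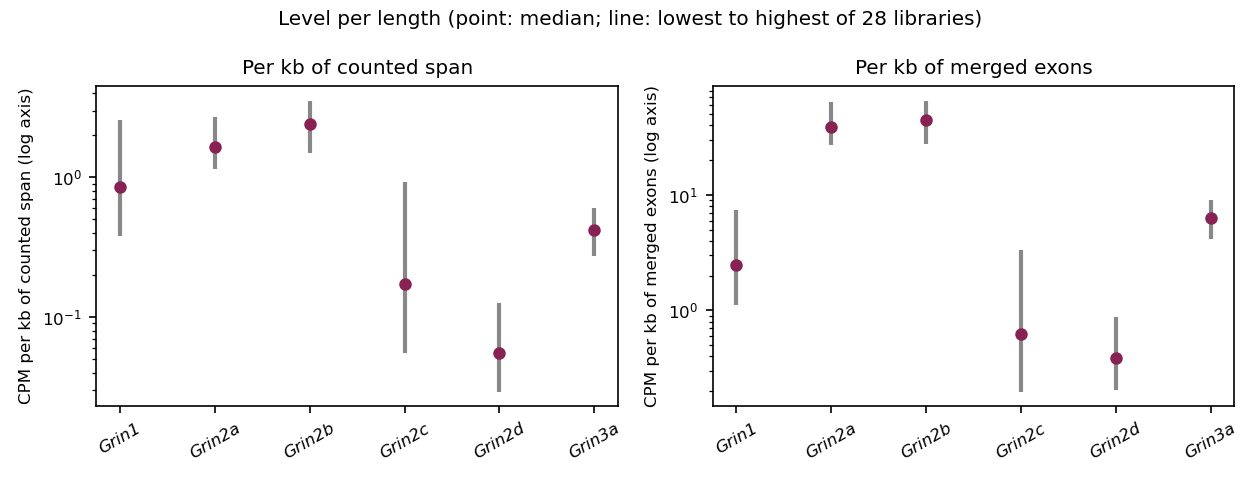
Level of each subunit gene in CPM per kb of counted span (left) and per kb of merged exons (right), on log axes. Points are medians and lines run from the lowest to the highest of 28 libraries; Grin1 lies above Grin3a on the left and below it on the right.

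The groups overlapped for every member. Grin2b ran from 969 over a median of 1161 to 1549 CPM in LacZ unstressed, from 687 over 1152 to 1211 in LacZ stressed, from 952 over 1176 to 1631 in knockdown-labelled unstressed and from 761 over 945 to 1246 in knockdown-labelled stressed libraries. Grin2a ran from 510.0 over 675 to 1146, from 489 over 725 to 952, from 515 over 872 to 967 and from 504 over 667 to 815 CPM in the same order of groups. The top of the range was lower in the stressed than in the unstressed group of the same virus for both genes, and the bottoms were close for Grin2a.

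Grin3a had within-group SDs of log2 CPM from 0.18 to 0.30, against 0.21 to 0.31 for Grin2b. It ran from 71.3 over 79.7 to 101.0 CPM in LacZ unstressed, from 50.7 over 68.2 to 85.3 in LacZ stressed, from 61.4 over 93.0 to 111 in knockdown-labelled unstressed and from 63.7 over 66.8 to 88.6 in knockdown-labelled stressed libraries. Its medians were lower in both stressed groups than in both unstressed ones, with overlapping ranges.

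Grin1 ran from 15.2 over 23.1 to 72.2, from 17.5 over 18.4 to 46.9, from 12.8 over 27.3 to 44.9 and from 10.7 over 19.3 to 41.8 CPM. Grin2c ran from 1.84 over 2.62 to 16.7, from 1.30 over 3.00 to 10.5, from 1.11 over 3.62 to 8.01 and from 0.994 over 2.05 to 7.97 CPM. Grin2d ran from 1.76 over 2.49 to 5.83, from 1.36 over 2.50 to 4.80, from 1.53 over 2.96 to 4.02 and from 1.85 over 2.80 to 3.81 CPM. The spread inside each group was far larger for Grin1 and Grin2c than any distance between group medians, and LacZ unstressed replicate 1 held the highest value of all 28 libraries for Grin1, Grin2c and Grin2d alike.

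**Figure D2:**
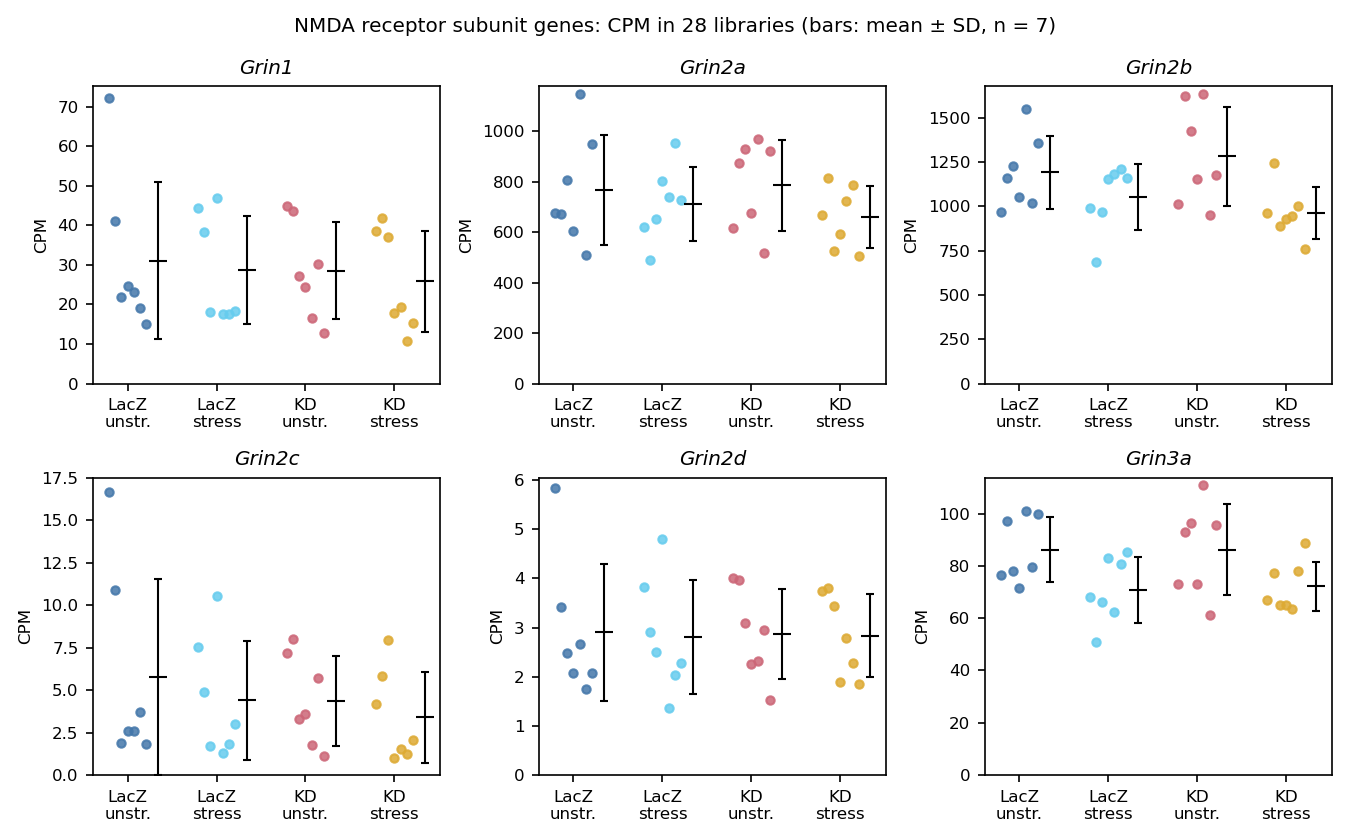
CPM of the 6 subunit genes in each of 28 libraries by group (LacZ or knockdown-labelled virus, KD, without or with stress); points are libraries and bars the mean ± SD of 7. Each panel has its own linear axis from 0, and the groups overlap in every panel.

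After stress, all 6 members had lower fitted means than without it, and none passed the test. Averaged over the viruses, Grin2b had a log2 fold change of -0.30 ± 0.11 (SE), a fold of 0.814 with a 95% interval from 0.697 to 0.950, and Grin3a one of -0.27 ± 0.10, a fold of 0.830 with an interval from 0.724 to 0.951. Grin2a stood at -0.18 ± 0.13, Grin1 at -0.13 ± 0.26, Grin2c at -0.38 ± 0.42 and Grin2d at -0.03 ± 0.20, and Grin2d alone turned to 0.013 when libraries were scaled by total count alone. Without LacZ unstressed replicate 1, Grin1 turned to 0.057, Grin2d to 0.11, and Grin2c stood at -0.097. Of the 6 members 0 were called at an adjusted p under 0.05 (edgeR quasi-likelihood test, Benjamini-Hochberg adjusted p = 1.00 for each), as were 0% of the 19171 genes, and DESeq2 also called 0 members. The edgeR values were unadjusted p = 0.0111 for Grin2b and unadjusted p = 0.00935 for Grin3a (adjusted p = 1.00). These 2 of 6 members were lower at an unadjusted 0.05 in both edgeR and DESeq2, where 1.61% of all genes were lower in edgeR. The median log2 fold change over the 6 members was -0.22, beside -0.01 over all genes tested, and the share of all genes below 0 was not counted.

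Within the viruses no member was called, and the interaction of virus and stress gave no call either. Under the knockdown-labelled virus Grin2b had a log2 fold change of -0.42 ± 0.15 (unadjusted p = 0.0122, edgeR adjusted p = 1.00), and 7 of 7 stressed libraries lay below the mean of the unstressed ones. Grin3a stood at -0.26 ± 0.14 there (unadjusted p = 0.0705), with 6 of 7 below. Under LacZ, Grin3a stood at -0.28 ± 0.14 (unadjusted p = 0.0476, adjusted p = 1.00), with 7 of 7 stressed libraries below the unstressed mean, and Grin2b at -0.18 ± 0.15 (unadjusted p = 0.253), with 5 of 7 below. These counts of libraries below a mean show no separation, because the groups overlapped for both genes under both viruses. They were not made over all genes. Under the knockdown-labelled virus Grin2b ran from 952 to 1631 CPM without stress and from 761 to 1246 with it. For stress within each virus 0 of 6 members and 0% of all genes were called after adjustment. At an unadjusted p under 0.05 the lower members were 1 of 6 beside 1.06% of all genes under the knockdown-labelled virus, and 1 of 6 beside 0.24% under LacZ, with the same single member in DESeq2, and the higher members were 0 of 6 beside 0.73% and 0.162% of all genes. The interaction of virus and stress was -0.23 ± 0.22 for Grin2b and 0.03 ± 0.19 for Grin3a, with 0 of 6 members and 0% of genes called. In the interaction 0 members had an unadjusted p under 0.05 in edgeR or DESeq2, beside 0.23% of all genes above and 0.125% below 0 at that threshold.

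The averaged stress values of Grin2b and Grin3a kept an unadjusted p under 0.05 in all 10 other settings that were run and with each of the 28 libraries left out in turn, and no setting brought an adjusted p under 0.05, the smallest being 0.41 with the GC slope of the library (defined further on) as a covariate. Without the 3 libraries set apart above, the log2 fold change for averaged stress was -0.32 ± 0.12 for Grin2b and -0.34 ± 0.10 for Grin3a, and it was -0.24 for Grin1, -0.20 for Grin2a, -0.62 for Grin2c and -0.12 for Grin2d. Under the knockdown-labelled virus it was then -0.44 for Grin2b and -0.35 for Grin3a, and under LacZ -0.20 and -0.32. The other 4 members stood without the 3 at -0.21 for Grin1, -0.25 for Grin2a, -0.46 for Grin2c and -0.025 for Grin2d under the knockdown-labelled virus and at -0.27, -0.14, -0.77 and -0.22 under LacZ. The virus-specific values were less stable for Grin3a: under LacZ its unadjusted p ran up to 0.127 when single libraries were left out, highest without LacZ stressed replicate 2, and was under 0.05 in 13 of those 28 fits.

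Of the cell type marker lists, 0 genes were called after stress, as over all genes. The median log2 fold change over all genes tested was -0.01, and the share of all genes below or above 0 was not counted. Of 13 excitatory neuron markers 12 had a log2 fold change below 0 after stress, with a median of -0.12, and the summed level ran from 712 to 1166 CPM in LacZ unstressed, 765 to 1110 in LacZ stressed, 666 to 1227 in knockdown-labelled unstressed and 631 to 1063 in knockdown-labelled stressed libraries. Oligodendrocyte markers lay below 0 in 7 of 8, with a median of -0.27, interneuron markers in 10 of 13, with a median of -0.10, and endothelial markers in 4 of 5, with a median of -0.17. Of 6 T cell markers 6 were above 0, with a median of 0.49, and of 7 tested microglia markers 7, with a median of 0.18. Of 5 tested bone markers 5 were above 0, with a median of 2.15. At an unadjusted 0.05 stood 4 of 5 bone and 1 of 6 T cell markers, beside 0.605% of all genes higher. The summed bone marker level was 2324 CPM in knockdown-labelled stressed replicate 2, against a group median of 21.2 CPM. For stress under LacZ the bone median was 0.26, with 0 of 5 at an unadjusted 0.05. Astrocyte, oligodendrocyte precursor and striatal neuron markers were above 0 in 5 of 9, 3 of 5 and 5 of 8. Their part in the subunit values was not tested, and in bulk tissue fewer cells of a type and less RNA per cell cannot be told apart.

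Under the knockdown label the members showed no common displacement. Averaged over stress states, the log2 fold change was -0.01 ± 0.11 for Grin2b, with a 95% interval from -0.23 to 0.21, 0.01 ± 0.10 for Grin3a, -0.04 ± 0.13 for Grin2a, -0.0021 ± 0.20 for Grin2d, -0.14 ± 0.26 for Grin1 and -0.38 ± 0.42 for Grin2c. Of the 6 members 0 were called by edgeR or DESeq2, as were 0% of all genes, and 0 members had an unadjusted p under 0.05, where 0.96% of genes were higher and 0.558% lower. Without stress Grin2b stood at 0.11 ± 0.15 and with stress at -0.13 ± 0.15, and Grin2a at 0.04 ± 0.18 and -0.11 ± 0.18. In each stress state 0 of 6 members were called, beside 0% of genes, and 0 had an unadjusted p under 0.05 in edgeR or DESeq2, where 0.407% of genes were higher and 0.49% lower without stress and 0.662% and 0.162% with it. The intervals limit what could be seen: for Grin3a the averaged fold lay between 0.879 and 1.16, whereas for Grin2c it lay between 0.423 and 1.40. The log2 fold change of Grin2c for the averaged label was -0.11 without LacZ unstressed replicate 1 and -0.57 without knockdown-labelled stressed replicate 3. Without stress, sample numbers above 20 in the titles were more frequent under the knockdown label than under LacZ. A term for these numbers turned the signs of Grin1, Grin2a, Grin2c and Grin2d for the label without stress, as given in the closing section.

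**Figure D3:**
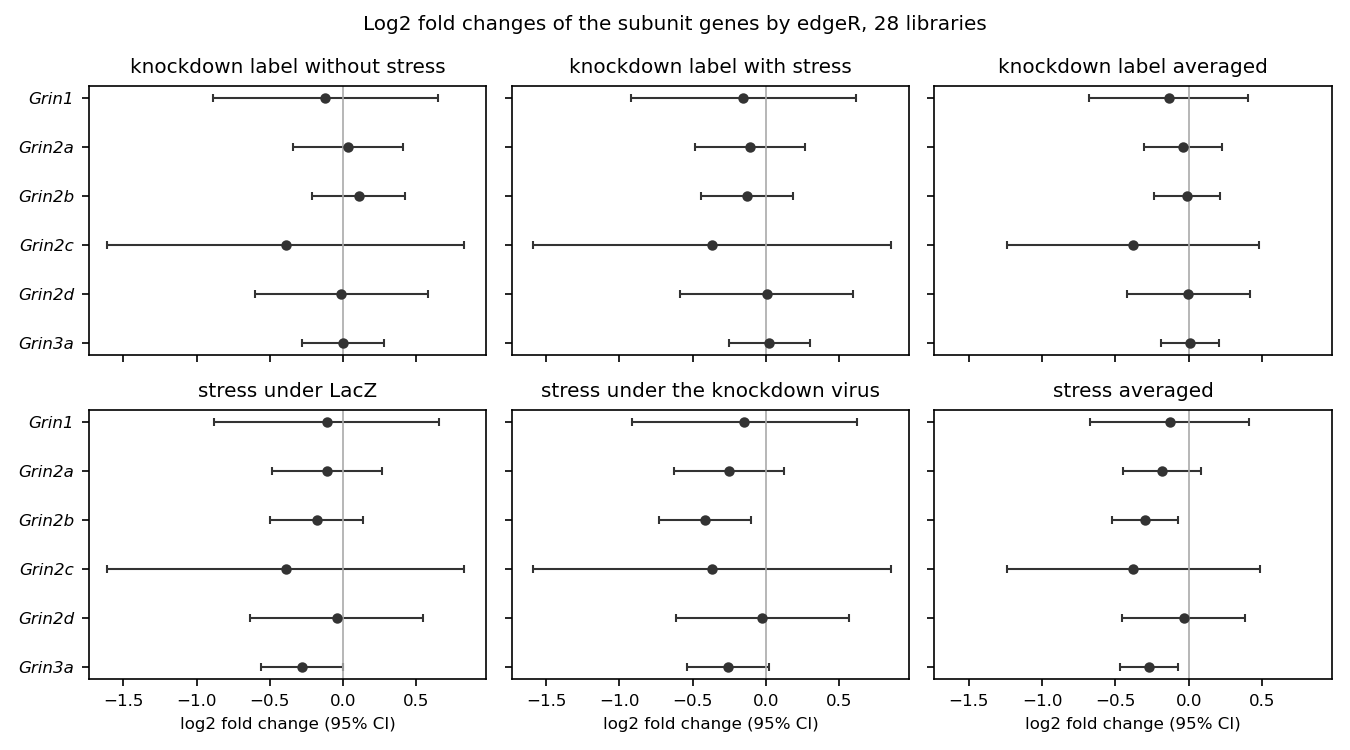
Log2 fold changes of the 6 subunit genes by edgeR over 28 libraries for the knockdown label (top) and stress (bottom), within each level of the other factor and averaged. Bars are 95% intervals; Grin2b and Grin3a lie below 0 in the averaged stress panel, and the widest intervals are those of Grin2c.

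The balance of subunits did not pass a test either. The ratio of Grin2a to Grin2b CPM had a median of 0.657 in LacZ unstressed (0.502 to 0.740), 0.673 in LacZ stressed (0.624 to 0.786), 0.593 in knockdown-labelled unstressed (0.537 to 0.782) and 0.662 in knockdown-labelled stressed libraries (0.593 to 0.786). Its largest difference was for stress under the knockdown-labelled virus, 0.16 on the log2 scale (two-sided exact permutation p = 0.101, Benjamini-Hochberg adjusted p = 0.953 over 12 tests), and under LacZ stress it was 0.10 (exact permutation p = 0.298). On residuals from the first principal component described below the same difference was 0.17 with an exact permutation p of 0.0315 before adjustment. The ratios of Grin2a and Grin2b to Grin1 differed by -0.21 to 0.15 on the log2 scale in their 8 comparisons, with exact permutation p from 0.604 to 0.953, and ran from 9.34 to 73.1 and from 13.4 to 97.7 among libraries. All these ratios are uncorrected for span length, so they compare groups and do not give the relative level of the genes. Per kb of counted span the ratio of the means of Grin2a and Grin1 was 1.67.

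Most of the variation of the members lay between libraries of the same group, and it divided them into 2 sets of 3. Over the 28 libraries pooled, Grin1, Grin2c and Grin2d went up and down together, as did Grin2a, Grin2b and Grin3a, and the sets were nearly unrelated to each other. Values inside 2 subsets of libraries differ from this and are given further on. Within the first set Pearson's r of log2 CPM over 28 libraries was 0.928 for Grin1 with Grin2c, 0.886 for Grin1 with Grin2d and 0.847 for Grin2c with Grin2d. Within the second it was 0.856 for Grin2a with Grin2b, 0.748 for Grin2b with Grin3a and 0.687 for Grin2a with Grin3a. Of these 6 pairs all passed an adjusted permutation p under 0.05 over a family of 54 relations, whereas the 9 pairs across sets ran from -0.271 to -0.0196 and 0 passed. The weakest of the 6, Grin2a with Grin3a, had a Spearman's rho of 0.659, adjusted permutation p of 0.000189 for r and 0.000687 for rho, and r of 0.597 without the 2 libraries farthest from the Grin2a median.

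The sets differ in base composition, and also in span and exonic share. Spans were 28007, 18075 and 46496 bp for Grin1, Grin2c and Grin2d, with 34.6%, 27.9% and 14.3% exonic. Those of Grin2a, Grin2b and Grin3a were 427663, 460279 and 184134 bp, with 4.19%, 5.40% and 6.67% exonic. Transcript GC thus describes a small part of the counted sequence in the second set. Composition and length were not told apart. GC content of the longest transcript was 59.4% for Grin1, 62.1% for Grin2c and 65.0% for Grin2d, above 95.5%, 98.6% and 99.7% of tested genes, against 44.8% for Grin2a, 45.7% for Grin2b and 49.2% for Grin3a. The coding sequence alone kept this order of sets, with 55.6%, 62.4% and 67.3% in the first and 50.8%, 52.9% and 51.1% in the second. The last 60 coding bases of 3 GluN2 genes are shown because they encode a matching part of each protein, the tail that binds the PDZ domains of PSD-95 and its relatives. Capitals mark the last 4 codons before the stop codon, the PDZ-binding end, and each stretch lies in the last exon on the minus strand (GRCm38, GENCODE M21 transcripts): Grin2b chr6:135732101-135732160, Grin2c chr11:115249574-115249633 and Grin2d chr7:45832783-45832842.
Grin2b: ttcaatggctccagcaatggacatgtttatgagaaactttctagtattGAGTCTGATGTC
Grin2c: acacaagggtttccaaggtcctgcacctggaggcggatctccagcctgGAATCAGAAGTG
Grin2d: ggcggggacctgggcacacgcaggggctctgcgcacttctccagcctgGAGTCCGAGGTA
These 60 bases are 38.3% GC in Grin2b, against 56.7% in Grin2c and 70.0% in Grin2d. G or C stands at 7 of 20 last codon positions in Grin2b, at 13 in Grin2c and at 17 in Grin2d. The difference is not present along the whole coding sequence: a 57-base stretch encoding the conserved end of the third membrane segment is 52.6% GC in Grin2b, 52.6% in Grin2c and 50.9% in Grin2d, with G or C at 15, 14 and 13 of 19 last codon positions.

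Of the members, the 3 GC-rich ones followed the GC slope of the library closely. For each library a GC slope was computed over all tested genes but the members: the change in log2 CPM, relative to the gene's mean over 28 libraries, per 10 percentage points of transcript GC. A library with a positive slope thus reads GC-rich genes high. Slopes ran from -1.17 to 1.21, and the group means lay near 0, at 0.00899, 0.0104, -0.0170 and -0.00242 for LacZ unstressed, LacZ stressed, knockdown-labelled unstressed and knockdown-labelled stressed. LacZ unstressed replicate 1, the library highest in Grin1, Grin2c and Grin2d, had the highest slope. Replicate numbers here follow accession order, and the slope was aligned with them: the 8 libraries numbered 1 or 2 had slopes from 0.454 to 1.21 and Grin1 from 38.4 to 72.2 CPM, and the 8 numbered 5 or 7 had slopes from -1.17 to -0.296 and Grin1 from 12.8 to 23.1 CPM. The other 12 ran from -0.893 to 0.836. The labels name no batch for this order.

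Grin1 followed the slope most closely, with r = 0.947 and rho = 0.911 over 28 libraries (permutation p = 1e-05, the smallest that 100000 resamples can give, adjusted 3.86e-05 for r and 4.15e-05 for rho) and r = 0.935 without the 2 farthest libraries. Grin2c had r = 0.893 and rho = 0.860 (adjusted permutation p = 3.86e-05 and 4.15e-05; r = 0.865 without the 2 farthest), and Grin2d r = 0.815 and rho = 0.753 (3.86e-05 and 9e-05; 0.754). The members of the other set ran the opposite way and more weakly: Grin2a had r = -0.494 and rho = -0.526 (adjusted permutation p = 0.0126 and 0.00827; r = -0.477), Grin3a r = -0.401 and rho = -0.385 (0.0485 and 0.0608; -0.381) and Grin2b r = -0.332 and rho = -0.382 (0.110 and 0.0615; -0.312). The slopes left a gap between 11 libraries at 0.454 or more and 17 at 0.0744 or less, found after the data were seen, with 2 to 5 libraries of each group on either side. Inside these r was 0.651 and 0.800 for Grin1, 0.498 and 0.577 for Grin2c and 0.378 and 0.330 for Grin2d, with no p computed, so that for Grin2c and Grin2d much of the pooled relation lies between the sets of libraries. Pairs of members also changed inside the 11 and the 17 libraries. There r was 0.754 and 0.676 for Grin1 with Grin2c, 0.909 and 0.456 for Grin1 with Grin2d and 0.719 and 0.362 for Grin2c with Grin2d. The 9 pairs across the 2 sets of genes ran from 0.162 to 0.592 in the 11 libraries and from -0.119 to 0.323 in the 17.

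The relation was shared by other genes of like composition. Among 555 other genes within 1 percentage point of Grin1 in GC and with a mean of at least 1 CPM, the median r with the slope was 0.943, and it was 0.935 over 196 genes near Grin2c and 0.917 over 30 near Grin2d. Near Grin2a and Grin2b the medians were -0.672 over 1618 genes and -0.538 over 1617, and near Grin3a it was 0.206 over 1653 genes, above the -0.401 of Grin3a itself. The within-group SD of log2 CPM, after a linear term for the slope, went from 0.72 to 0.22 for Grin1, from 1.15 to 0.48 for Grin2c and from 0.53 to 0.31 for Grin2d, but only from 0.34 to 0.29, 0.27 to 0.25 and 0.24 to 0.22 for Grin2a, Grin2b and Grin3a. The share of counts from mitochondrial genes ran against the slope in these relations, with r = -0.759 for Grin1 (rho = -0.800, adjusted permutation p = 3.86e-05 for r and 4.15e-05 for rho, r = -0.769 without the 2 farthest libraries). Inside the 11 and the 17 libraries that r was -0.271 and -0.496, with no p computed. With log2 total count r was 0.519 for Grin1, 0.636 for Grin2c and 0.530 for Grin2d (adjusted permutation p = 0.0078, 0.000657 and 0.00667). For Grin2a, Grin2b and Grin3a it ran from -0.248 to -0.0377, with adjusted permutation p of 0.25 or more. Inside the 11 and the 17 libraries r with log2 total count was 0.177 and 0.293 for Grin1. It was 0.00605 and 0.693 for Grin2c and 0.318 and 0.311 for Grin2d, with no p computed. The part of library preparation, depth, RNA quality or tissue in any of these relations was not tested.

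**Figure D4:**
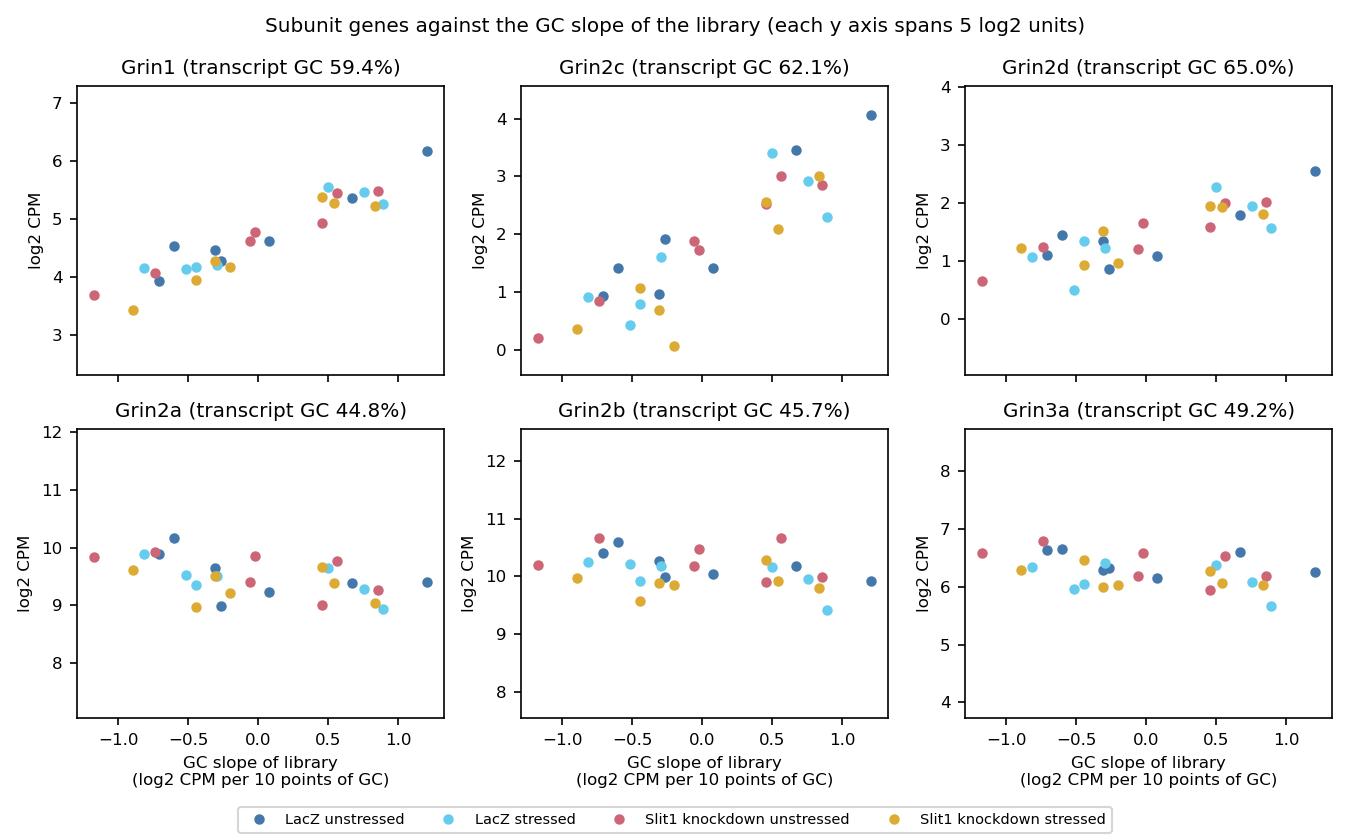
Log2 CPM of each subunit gene against the GC slope of its library, with the transcript GC content in each title; points are 28 libraries coloured by group, and each y axis spans 5 log2 units. The 3 GC-rich genes in the top row climb with the slope and the 3 others do not.

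Once the first principal component of log2 CPM was removed, all 6 members varied together. This component, computed without the members, held 58.8% of the variance. On the residuals the 15 pairs ran from 0.469 for Grin2a with Grin2c to 0.839 for Grin2a with Grin2b, and 15 of 15 passed an adjusted permutation p under 0.05 for r, with 1 of them, Grin2c with Grin2d, at 0.0513 for rho. Grin1 with Grin2a, unrelated on log2 CPM at -0.235, stood at 0.827 with a rho of 0.885 and 0.795 without the 2 farthest libraries. For comparison, 13131 other genes had a median r on the residuals of 0.0655 with Grin1, 0.0101 with Grin2a, -0.00464 with Grin2b, 0.133 with Grin2c, 0.0393 with Grin2d and 0.0802 with Grin3a. The share of those genes above the median r that a member had with the other 5 was 7.25%, 4.68%, 4.16%, 13.9%, 11.7% and 8.90% in the same order, so many genes outside the family were as close.

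**Figure D5:**
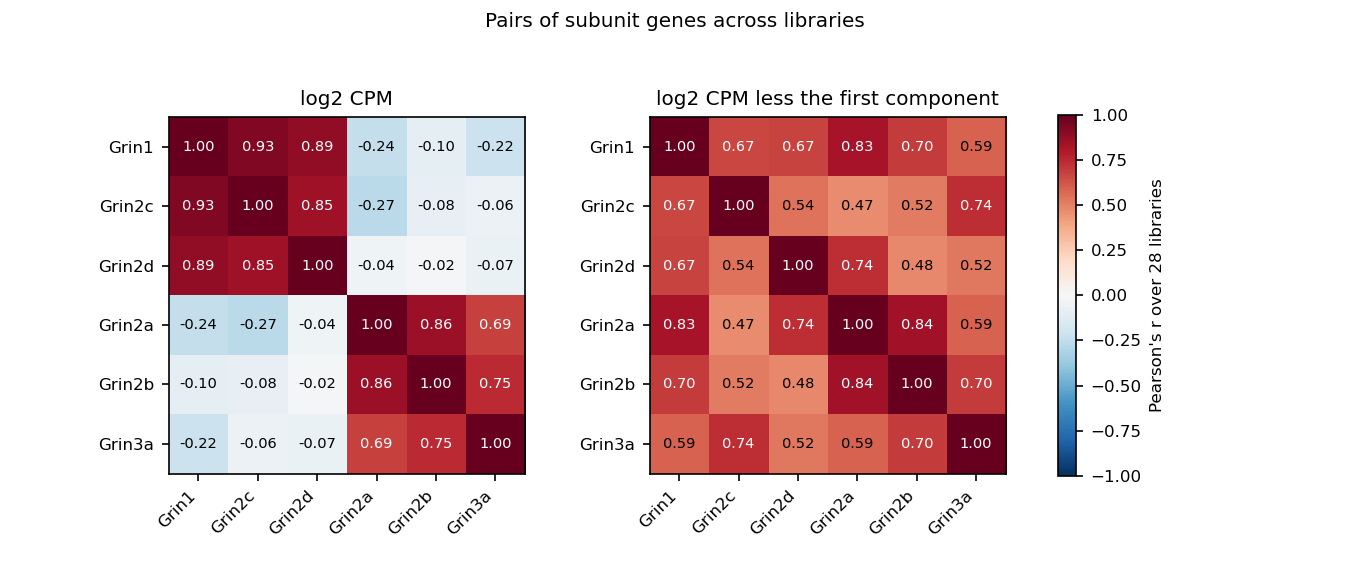
Pearson's r between subunit genes over 28 libraries, for log2 CPM (left) and for its residuals from the first principal component (right), on 1 colour scale from -1 to 1. On the left 2 blocks of 3 genes stand apart; on the right all 15 pairs lie at 0.469 or more.

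The genes whose pattern was most like a member's were named by the highest r over 28 libraries among 13136 genes. Grin1 had Smyd2 and Slc6a17 among its 3 closest genes, and Grin2a was closest to Kcnq3, a subunit of the neuronal M-type potassium channel, at 0.958, then to Mapk10 and Zfp697. Grin2b was closest to Mamld1 at 0.936, Kcnma1 and Prickle2, Grin2c to Epha10 at 0.964, Aifm3 and Aldh7a1, Grin2d to the ryanodine receptor Ryr1 at 0.947, Itpka and Per2, and Grin3a to Erc2, a presynaptic active zone protein, at 0.889, Astn1 and Rapgef5. On residuals from the first component the closest were Tbc1d24 at 0.915 for Grin1, Cacng3, an AMPA receptor auxiliary subunit, at 0.965 for Grin2a, Epha10 at 0.872 for Grin2c, Uggt2 at 0.876 for Grin2d and Gpr137c at 0.889 for Grin3a. No member was among the 3 genes closest to another member on either scale.

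The promoters of the 2 GC-rich members that moved most closely together are shown so that their base composition can be read, with that of the remaining entry given after them. They are the 250 bases before the start of each gene on the minus strand, from RefSeq on GRCm38.p6, and 3 of the 6 members have an entry there. Capitals mark GGGCGG or its complement CCGCCC, the GC box recognised by Sp1 and related factors, searched on both strands with overlapping matches allowed. The Grin1 window is chr2:25319188-25319437 and the Grin2c window chr11:115267244-115267493.
Grin1: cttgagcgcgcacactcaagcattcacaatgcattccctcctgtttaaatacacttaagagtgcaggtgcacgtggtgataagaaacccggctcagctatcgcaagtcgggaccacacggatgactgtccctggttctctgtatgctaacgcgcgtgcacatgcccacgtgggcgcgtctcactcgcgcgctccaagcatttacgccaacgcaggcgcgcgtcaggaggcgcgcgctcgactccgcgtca
Grin2c: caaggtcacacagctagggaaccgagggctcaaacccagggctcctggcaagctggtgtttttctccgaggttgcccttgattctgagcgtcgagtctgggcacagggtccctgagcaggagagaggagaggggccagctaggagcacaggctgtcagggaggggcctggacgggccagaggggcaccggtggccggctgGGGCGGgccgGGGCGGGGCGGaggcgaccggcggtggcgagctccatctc
The Grin1 window is 58.8% GC with 0 matches and the Grin2c window is 68.8% GC with 3, where 32.7% of 32851 promoter windows of the same length hold at least 1 match and the median window is 52.4% GC. The Grin2d window, where no GENCODE transcript starts and which is not printed, is 54.4% GC with 0 matches. A match is a description of letters only.

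The other genes of the receptor pathway gave no call. Of 24 scaffolds and signalling partners of the receptor 0 rose and 0 fell after stress at an adjusted p under 0.05 (edgeR), as over all genes. Of their log2 fold changes 23 of 24 were below 0, with a median of -0.23 beside -0.01 over all genes tested. The share of all genes below 0 was not counted beside any of these lists. The smallest p belonged to Dlgap2 at -0.32 ± 0.13 (unadjusted p = 0.0223, edgeR adjusted p = 1.00) and Dlgap1 at -0.31 ± 0.15 (unadjusted p = 0.0428), which encode guanylate kinase-associated proteins linking PSD-95 to Shank, with Rasgrf1 and Dapk1 at -0.19 each. Dlgap2 and Dlgap1 were the 2 of 24 lower at an unadjusted 0.05, beside 1.61% of all genes. Of 23 kinases, phosphatases and trafficking genes 0 were called, 19 lay below 0 and the median was -0.11, with Prkca, a protein kinase C, at -0.19 ± 0.09 (unadjusted p = 0.0477) and Apba1 at -0.20 ± 0.12. Of 11 tested genes of co-agonist synthesis and transport 0 were called, 8 lay below 0 and the median was -0.06, with Slc38a1 at -0.12 ± 0.08 and Srr, the serine racemase that makes D-serine, at -0.03 ± 0.07. Under the knockdown label, averaged, the medians of these 3 lists were -0.05, -0.05 and -0.08 with 0 genes called and 0 at an unadjusted p under 0.05, beside 0% called and 0.96% higher and 0.558% lower of all genes, whose median was -0.02.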

How the data were processed

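RNA was sequenced from ventromedial prefrontal cortex punches of 28 mice, from ribosome-depleted RNA with random priming, per the labels' protocols. The deposited values were raw counts, made by the authors with featureCounts 1.6.2 over whole gene spans of the Ensembl 90 annotation of GRCm38, with read pairs counted once, no strand option and duplicates removed, per the file headers. HISAT2 and DESeq2 are named, per the submitters' processing notes. Introns therefore add to each count, and fragments in overlapping genes went to no gene.

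Counts were filtered by filterByExpr, scaled by TMM and tested on all 19171 genes with edgeR 4.0.16 (glmQLFit, glmQLFTest, robust; R 4.3.3), 1 coefficient per group, Benjamini-Hochberg adjustment and a threshold of 0.05. log2 CPM used a prior count of 2. Ratios used exact permutation over 3432 splits (smallest p 0.000583) and relations 100000 permutations. Replicates were separate mice per the labels. DESeq2 1.42.0 and the other alternatives are given in the closing section. Scripts were tested on simulated data. Exons and GC content came from GENCODE M21. Named were the 6 members, Slit1, Grin3b, up to 4 genes per list with the smallest p, and the 3 most alike genes per member, of which some are not reported here. The members and lists were chosen with earlier results of these data known.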

Additional observations from a re-analysis of the deposited data

Results flagged for a closer look

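Among 24 sets of 7 libraries, the 6 members in 4 groups each, 1 held a library far from the rest of its group. Grin2d was highest in LacZ unstressed replicate 1, at 5.83 CPM, where the gap to the next library was a larger part of the group's range than Dixon's critical value for 7 values at the 95% level allows. Chance alone would mark about 1 in 20 such sets. The same library was the highest of all 28 for Grin1 and Grin2c and had the highest GC slope of all libraries, 1.21, and the part of that slope in the Grin2d value was not tested.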

How the results depend on the processing

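No paired analysis was possible because the labels give no replicate numbers, and those used here follow accession order and pair no mice. Of 42 log2 fold changes (6 members in 7 comparisons), 0 were called at an adjusted p under 0.05 or under 0.1 in any setting. RLE factors, a filter of at least 1 CPM in 7 libraries, DESeq2 and, for its 24 values, a fit of only the groups compared turned 0 signs. Scaling by total count alone, chosen after seeing the data, moved the median of all genes by at most 0.09 on the log2 scale. The cause of the sign changes below was not tested.

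Upper-quartile factors turned 6 signs: Grin2d 0.027 and Grin3a 0.014 for the knockdown label without stress, Grin2c -0.021 and Grin2d -0.0040 for the interaction, and Grin2b 0.0016 and Grin2d 0.026 for the averaged label. Total counts alone turned 6: Grin2d 0.022 for the label without stress, 0.029 for stress under the knockdown-labelled virus and 0.013 for averaged stress, and Grin2a 0.011, Grin2b 0.045 and Grin2d 0.038 for the averaged label. No count filter turned 1, Grin2d at 0.0023 for the averaged label. The first principal component as covariate turned 4: Grin2d 0.024 for the label without stress and 0.019 averaged, and Grin2c -0.26 and Grin2d -0.010 for the interaction. The GC slope as covariate turned 3: Grin2d 0.029 for the label without stress and 0.034 averaged, and Grin2c -0.21 for the interaction. A term for sample numbers above 20 in the titles turned 11: Grin1 0.37, Grin2a -0.0044, Grin2c 0.29 and Grin2d 0.29 for the label without stress, Grin1 0.011 and Grin2d 0.028 for stress under LacZ, Grin2c -0.65 and Grin2d -0.25 for the interaction, and Grin1 0.098, Grin2d 0.17 and Grin3a -0.014 for the averaged label. Without the 3 libraries set apart, 5 turned: Grin3a -0.025 for the label with stress, Grin1 0.064 and Grin3a -0.022 for the interaction, and Grin2d 0.088 and Grin3a -0.014 for the averaged label. Among 12 ratio differences, that setting turned Grin2a to Grin1 to 0.080 for stress under LacZ and 0.0093 under the knockdown-labelled virus, and Grin2b to Grin1 to -0.012 for the label with stress. Residuals from the first component turned Grin2a to Grin1 to 0.0021 and 0.039 for stress under LacZ and under the knockdown-labelled virus, and brought Grin2a to Grin2b under the latter to 0.17, past an unadjusted 0.05. A prior count of 0.5 turned 0 ratios.

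Leaving out each library in turn changed a sign in 25 of the 42 values and 8 of the 12 ratios. For the label without stress the ranges were -0.26 to 0.24 for Grin1, -0.046 to 0.16 for Grin2a, -0.61 to 0.15 for Grin2c, -0.11 to 0.25 for Grin2d, -0.073 to 0.065 for Grin3a, -0.16 to 0.30 for Grin2a to Grin1 and -0.13 to 0.33 for Grin2b to Grin1. For the label with stress they were -0.31 to 0.0068 for Grin1 and -0.74 to 0.014 for Grin2c (both upper ends without LacZ stressed replicate 4), -0.11 to 0.19 for Grin2d, -0.048 to 0.073 for Grin3a, -0.021 to 0.050 for Grin2a to Grin2b, -0.16 to 0.24 for Grin2a to Grin1 and -0.13 to 0.19 for Grin2b to Grin1. For stress under LacZ they were -0.27 to 0.25 for Grin1, -0.19 to 0.017 for Grin2a, -0.77 to 0.16 for Grin2c, -0.22 to 0.23 for Grin2d, -0.29 to 0.17 for Grin2a to Grin1 and -0.41 to 0.064 for Grin2b to Grin1. For stress under the knockdown-labelled virus they were -0.12 to 0.073 for Grin2d, 0.13 to 0.22 for Grin2a to Grin2b and -0.28 to 0.16 for Grin2a to Grin1. For the interaction they were -0.39 to 0.13 for Grin1, -0.52 to 0.41 for Grin2c, -0.25 to 0.20 for Grin2d and -0.041 to 0.097 for Grin3a. For the averaged label they were -0.22 to 0.041 for Grin1, -0.080 to 0.025 for Grin2a, -0.056 to 0.027 for Grin2b, -0.062 to 0.13 for Grin2d and -0.028 to 0.045 for Grin3a, and for averaged stress -0.21 to 0.057 for Grin1 and -0.12 to 0.11 for Grin2d. Grin2c kept its sign at -0.57 to -0.11 for the averaged label, -0.57 to -0.097 for averaged stress and -0.73 to -0.15 for stress under the knockdown-labelled virus. The upper ends of Grin1, Grin2c and Grin2d for stress under LacZ and for the label without stress came without LacZ unstressed replicate 1. Counts of Grin2c and Grin2d as low as 21 and 29 fragments limit their precision.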
